A study of Mus musculus with 6 samples.

Results

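Collagens, laminins and other genes of the extracellular matrix were examined in cultured mouse neurons after knockdown of HDAC2 or of Sp3. The genes were taken by symbol: collagen chains, laminin chains, thrombospondins, fibulins, fibrillins, tissue inhibitors of metalloproteases, nidogens, Smoc1 and Smoc2, Tnc, Fn1 and Sparc. Of the 23235 genes deposited, 75 bore such a symbol, and the 59 with at least 0.5 FPKM in some group are described here. FPKM counts fragments per kilobase of transcript and per sequencing depth, so levels can be set side by side between genes.

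The study compared 3 groups of 2 libraries each, treated with short hairpin RNAs against HDAC2, with short hairpin RNAs against Sp3, or labelled control. HDAC2 is a histone deacetylase of corepressor complexes, and Sp3 belongs to the Sp family of transcription factors, which bind GC boxes in promoters. All 3 groups were primary cortical and hippocampal neurons of mouse embryos at day 15 grown for 17 days in Neurobasal with B27, with cytosine arabinoside, which blocks dividing cells, at 1 uM on day 5 and lentivirus on day 12. The labels give neither what the control virus carried nor whether a group's libraries stem from different cultures, so p-values cover the spread of these libraries alone, which may be technical. Each group has 1 deposited FPKM value and no value per library, so no standard deviation can be given. The error after ± is the standard error of a log2 fold change implied by the authors' test statistic.

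The targeted genes matched the labels, with Hdac2 at 12.3 FPKM in HDAC2 knockdown, 38.8 in Sp3 knockdown and 49.4 in control, and Sp3 at 26.7 FPKM in HDAC2 knockdown, 5.82 in Sp3 knockdown and 15.5 in control. The 11 neuronal markers in the tables, all above 0.5 FPKM in every group, summed to 1203 FPKM in HDAC2 knockdown, 1443 in Sp3 knockdown and 1092 in control. Fold changes of all genes were off centre, their median on the log2 scale being 0.32 in HDAC2 knockdown and -0.13 in Sp3 knockdown over tested genes of at least 1 FPKM. Log2 fold changes below are therefore relative to this median gene ("centred"). They were given a normal test of the shifted statistic adjusted by Benjamini-Hochberg over all genes, printed as adjusted p. The q-values are those of the authors' deposited table. They belong to the fold change as deposited, also where they are printed beside a centred one. A gene is said to have risen or fallen where both calls passed 0.05, and where only 1 did, that is stated. Both comparisons use the same control libraries, so an error in the control moves both folds of a gene the same way.

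The extracellular matrix is the secreted network around cells. Type IV collagen, laminins and nidogens build the basement membranes around brain vessels and under the meninges. Laminins are trimers of an alpha, a beta and a gamma chain. In the brain, astrocytes and their precursors secrete glycoproteins such as tenascin-C, SPARC and thrombospondins, and thrombospondins promote the formation of synapses.

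The promoters of 4 genes that fell in Sp3 knockdown are shown. They were chosen after their values were seen, and each of the 4 windows holds a GC box. Col4a1 and Col4a2 encode the chains of the common type IV collagen and lie head to head, Timp3 encodes an inhibitor of metalloproteases, and Lama5 encodes a laminin alpha chain. The windows, from RefSeq on GRCm38.p6, run from 250 bases before to 50 bases after each start (Col4a1 at chr8:11312777-11313076, minus strand, Col4a2 at chr8:11312555-11312854, plus strand, Timp3 at chr10:86300162-86300461, plus strand, and Lama5 at chr2:180225810-180226109, minus strand), with the GC box letters GGGCGG on either strand in capitals.
Col4a1: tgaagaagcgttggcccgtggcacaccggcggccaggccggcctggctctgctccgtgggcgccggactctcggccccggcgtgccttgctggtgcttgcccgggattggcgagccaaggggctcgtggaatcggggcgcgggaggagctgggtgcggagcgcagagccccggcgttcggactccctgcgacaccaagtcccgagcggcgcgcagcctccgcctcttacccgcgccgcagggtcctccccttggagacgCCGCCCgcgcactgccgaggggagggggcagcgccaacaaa
Col4a2: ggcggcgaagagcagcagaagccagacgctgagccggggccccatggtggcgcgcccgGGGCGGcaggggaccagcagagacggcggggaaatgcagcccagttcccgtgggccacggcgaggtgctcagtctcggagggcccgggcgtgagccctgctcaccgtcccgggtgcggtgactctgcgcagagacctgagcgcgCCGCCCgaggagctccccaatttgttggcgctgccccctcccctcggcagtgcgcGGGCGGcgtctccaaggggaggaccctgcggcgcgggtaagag
Timp3: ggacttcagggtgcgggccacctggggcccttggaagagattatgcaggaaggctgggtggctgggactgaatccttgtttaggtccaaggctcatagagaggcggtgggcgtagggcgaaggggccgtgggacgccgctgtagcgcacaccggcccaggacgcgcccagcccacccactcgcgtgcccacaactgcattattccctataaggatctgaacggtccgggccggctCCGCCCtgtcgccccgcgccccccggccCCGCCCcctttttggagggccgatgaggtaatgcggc
Lama5: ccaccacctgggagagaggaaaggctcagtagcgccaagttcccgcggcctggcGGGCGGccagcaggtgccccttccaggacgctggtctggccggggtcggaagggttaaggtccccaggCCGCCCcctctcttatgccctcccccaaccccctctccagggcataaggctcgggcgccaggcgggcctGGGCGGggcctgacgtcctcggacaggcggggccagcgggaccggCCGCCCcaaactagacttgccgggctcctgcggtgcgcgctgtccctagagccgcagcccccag
The starts of Col4a1 and Col4a2 were 21 bases apart in GRCm38.p6, and their windows share 78 bases with 1 GC box, read on opposite strands. The Col4a2 window holds 3 GC boxes, that of Lama5 holds 4 and that of Timp3 holds 2. Of the 59 matrix genes 44 had a RefSeq window, and in 30 of these, or 68.2%, it held a GC box. The share was 69.7% of 9382 matched genes among those tested in HDAC2 knockdown, 69.6% of 9409 among those tested in Sp3 knockdown, and 38.2% of all 27025 genes with a window. A GC box stood in 11 of 13 matched members called lower in Sp3 knockdown, in 4 of 4 called higher and in 9 of 15 not called. The matched members called lower without one were Col20a1 and Col6a3, whose windows are not shown. These counts describe letters in the windows and were not tested.

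In control cultures the matrix genes ranged from 0.143 to 85.9 FPKM, with a median of 2.38, and 12 of the 59 reached 10 FPKM. Timp2, an inhibitor of metalloproteases, was the most abundant, at 147 FPKM in HDAC2 knockdown, 136 in Sp3 knockdown and 85.9 in control. Sparc, a secreted calcium-binding glycoprotein, came next in control, at 163 FPKM in HDAC2 knockdown, 43.8 in Sp3 knockdown and 51.7 in control. Timp2 made up 17.3% of the summed FPKM of the 59 genes in HDAC2 knockdown, 33.1% in Sp3 knockdown and 20.8% in control. The sum itself was 849 FPKM in HDAC2 knockdown, 411 in Sp3 knockdown and 414 in control. These sums are as deposited and hold the shift of all genes given above. HDAC2 knockdown had the highest of the 3 values in 50 of the 59 genes, control in 8 and Sp3 knockdown in 1, Thbs1. That is 84.7% of them for HDAC2 knockdown, where 68.2% of all 15218 genes with at least 0.5 FPKM in some group were highest there. Among genes with at least 0.5 FPKM in control, which need no other group to enter, the shares were 43 of 52 matrix genes, or 82.7%, and 67.5% of all genes. These shares are of FPKM as deposited and were not tested.

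**Figure D1:**
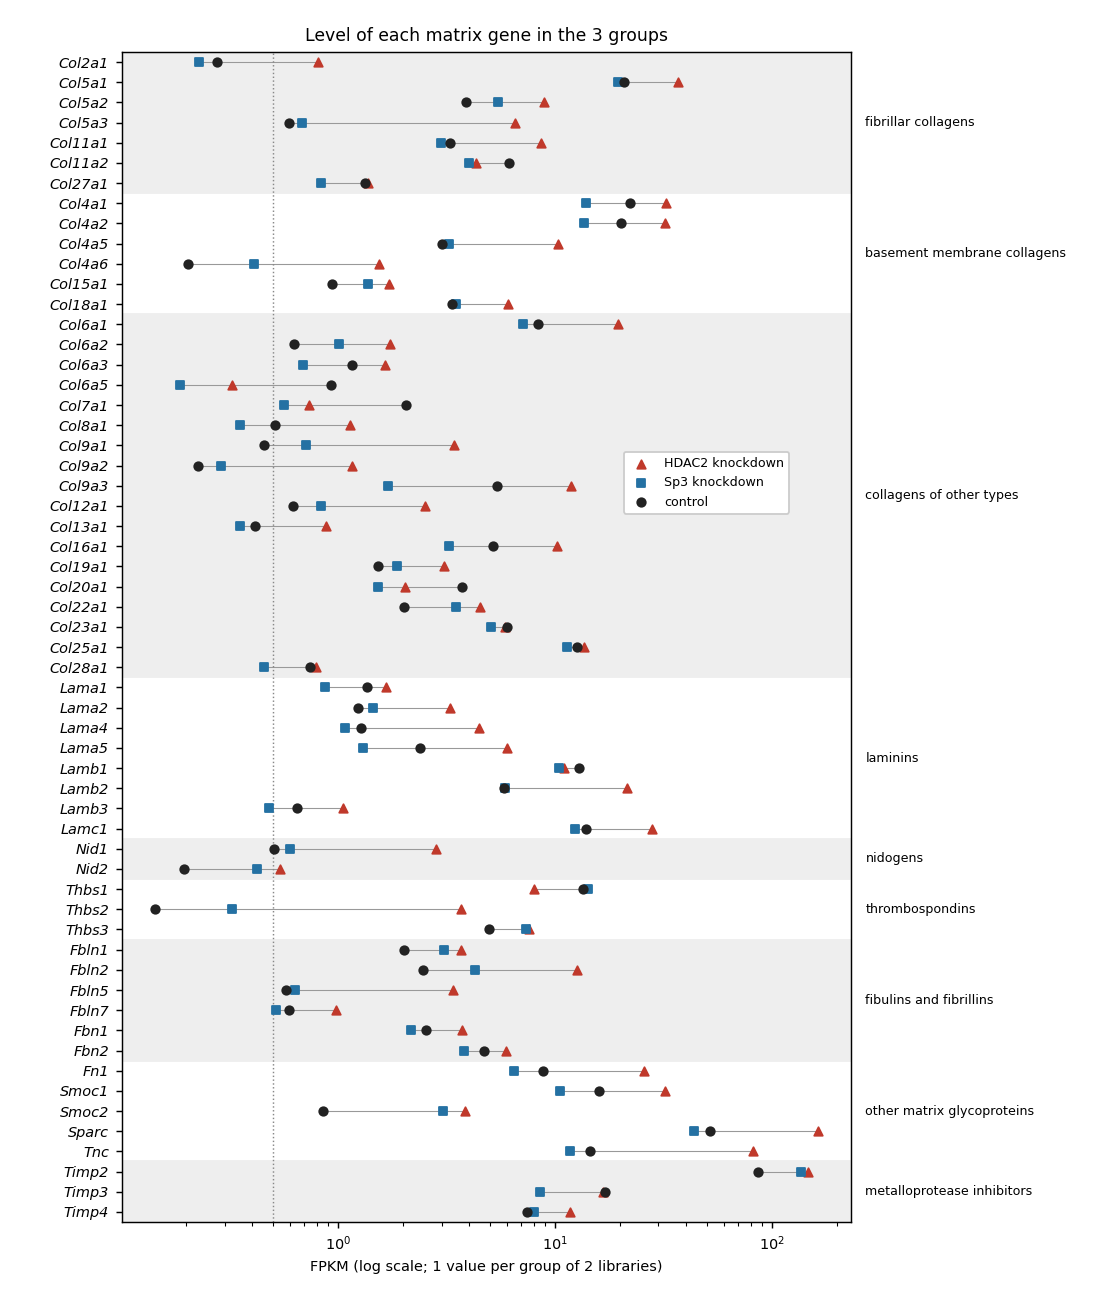
FPKM of 58 of the 59 matrix genes on a log axis, 1 value per group of 2 libraries, with red triangles for HDAC2 knockdown, blue squares for Sp3 knockdown and black circles for control. The dotted line marks 0.5 FPKM. The triangle lies furthest right in 50 of the 58 rows.

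The fibrillar chains Col1a1, Col1a2 and Col3a1 were almost absent. Col1a1 stood at 0.362 FPKM in HDAC2 knockdown, 0.0966 in Sp3 knockdown and 0.439 in control, and Col1a2 at 0.0292 FPKM in HDAC2 knockdown, 0.0415 in Sp3 knockdown and 0.0534 in control. Col3a1 had 0.316 FPKM in HDAC2 knockdown, 0.0395 in Sp3 knockdown and 0.0454 in control. These 3 fibrillar chains, abundant in fibroblasts, are among the 16 genes that stayed below 0.5 FPKM in every group, with Col24a1, Col4a3, Col4a4, Col6a4, Col6a6, Col8a2, Col10a1, Col14a1, Col17a1, Lama3, Lamc3, Thbs4 and Timp1, and none of the 16 was tested by the authors. Just below the limit were Lama3, Col1a1 and Timp1, with highest values of 0.484, 0.439 and 0.437 FPKM, and just above it were Nid2, Col28a1 and Col2a1, with 0.538, 0.794 and 0.805 FPKM. Nid2, Col28a1, Col2a1, Col8a1, Col9a2, Col13a1, Lamb3 and Fbln7 passed the limit but were not tested in either comparison, and the highest value among them was 1.15 FPKM, for Col9a2 in HDAC2 knockdown.

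In HDAC2 knockdown 42 of 51 tested matrix genes lay above control as deposited and 9 below, where 10201 of all tested genes lay above and 3287 below. After centring 39 lay above 0 and 12 below, where 6682 and 6799 of all genes did. Over the 44 genes tested in both comparisons, 32 lay above 0 after centring and 12 below. The authors' deposited table tested 51 of the 59 and called 31 higher and 5 lower at q under 0.05, or 60.8% and 9.8%, where 24.6% of all tested genes were called higher and 3.6% lower. After centring 25 were higher and 6 lower, where 10.2% and 7.59% of all genes were. Among the called members, 7 were tested in HDAC2 knockdown alone, since both other groups were too low. These had to be high there to enter, and without them the authors' deposited table called 24 of 44 higher, or 18 of 44 after centring. The centred median over the 44 genes tested in both comparisons was 0.55, over all 51 it was 0.68, and over all tested genes it was -0.0044. In bulk RNA, fewer cells of a type and less RNA per cell cannot be told apart.

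In Sp3 knockdown matrix genes were more often lower than higher. The authors' deposited table tested 44 and called 7 higher and 18 lower, or 15.9% and 40.9%, where 13.2% of all tested genes were called higher and 26.1% lower. After centring 9 were higher and 15 lower, where 20.2% and 17.6% of all genes were. The centred median of the 44 was -0.097 and that of all tested genes -0.0016. Errors were smaller here, with a median standard error of 0.14 over the tested members, against 0.28 in HDAC2 knockdown.

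**Figure D2:**
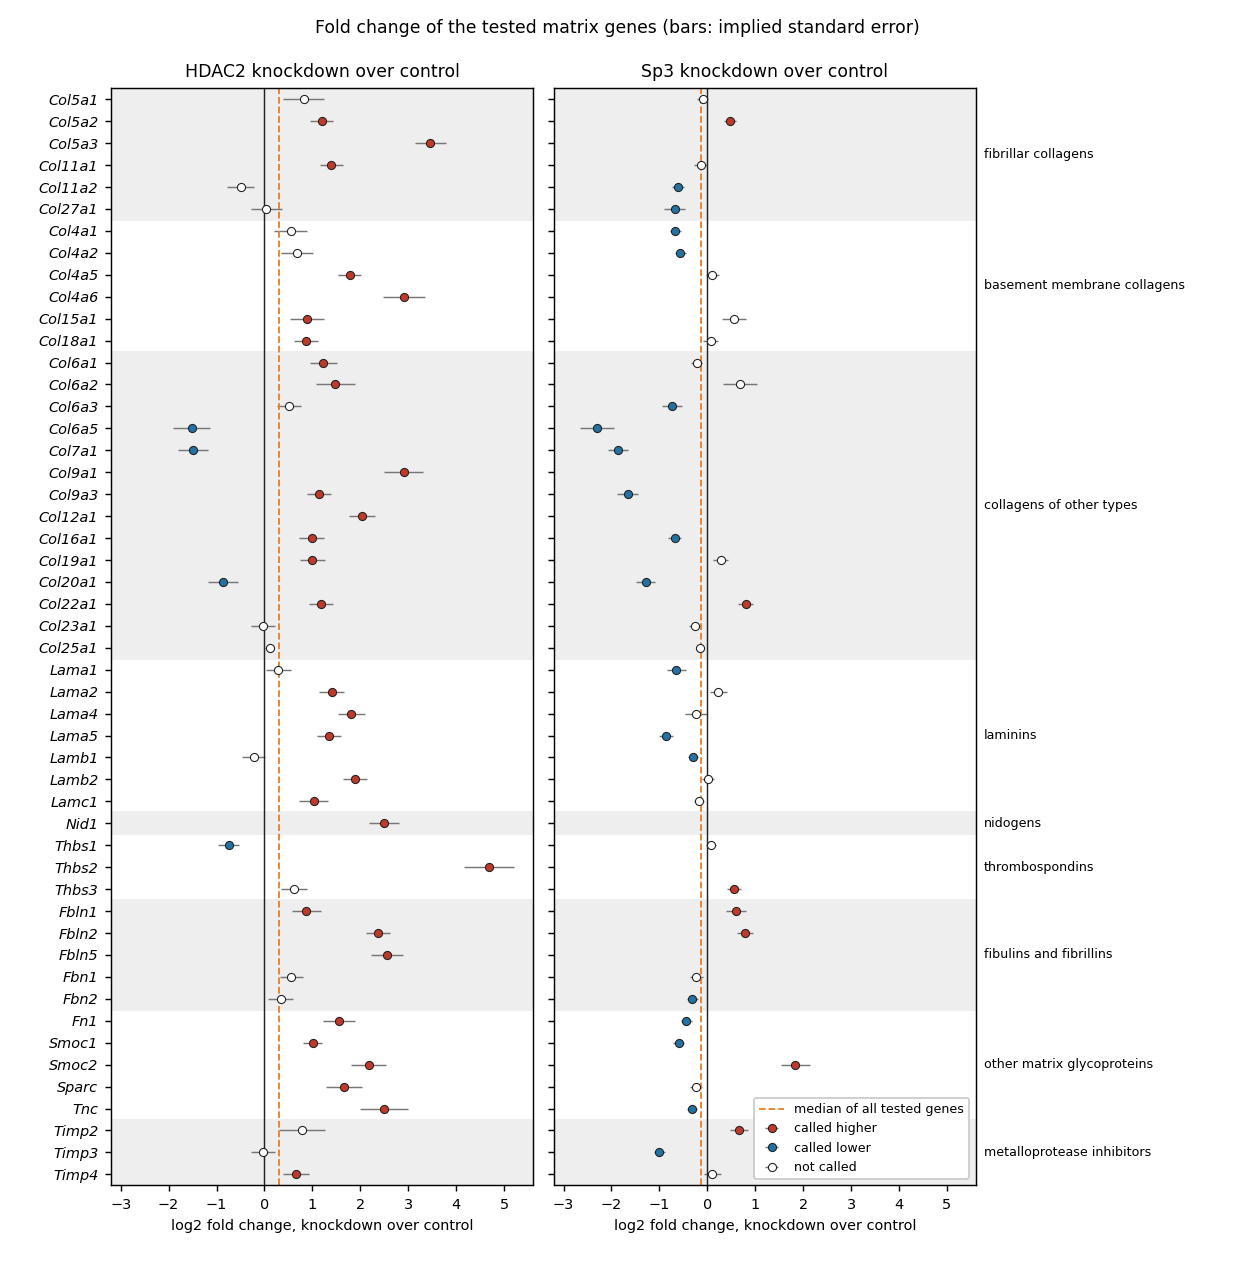
Log2 fold change over control, as deposited, of 50 of the 51 tested matrix genes in HDAC2 knockdown (left) and of 43 of the 44 tested in Sp3 knockdown (right), with bars for the implied standard error. Filled points passed q under 0.05 in the authors' deposited table (red higher, blue lower), and the dashed orange line is the median of all tested genes, 0.31 on the left and -0.13 on the right. On the left 42 of 50 points lie above 0, and on the right 27 of 43 lie below it. Of all tested genes, 10201 lay above 0 and 3287 below in HDAC2 knockdown. In Sp3 knockdown 5059 of them lay above 0 and 8487 below.

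Of 6 tested fibrillar collagens, Col5a2, Col5a3 and Col11a1 rose in HDAC2 knockdown. Of all tested genes 24.6% were called higher there, or 10.2% after centring. Col5a3, a minor chain of type V collagen, measured 6.51 FPKM in HDAC2 knockdown, 0.679 in Sp3 knockdown and 0.592 in control. It was tested in HDAC2 knockdown alone and rose (centred log2 fold change 3.14 ± 0.32, q listed as 0 per the authors' deposited table). Col5a2 measured 8.92 FPKM in HDAC2 knockdown, 5.44 in Sp3 knockdown and 3.90 in control. It was higher in both knockdowns (0.88 ± 0.24, q = 1.03e-05 in HDAC2 knockdown, and 0.61 ± 0.12, q = 0.000675 per the authors' deposited table in Sp3 knockdown). Col5a1 was the most abundant fibrillar chain at 36.7 FPKM in HDAC2 knockdown, 19.5 in Sp3 knockdown and 20.9 in control, and it passed the threshold in neither comparison (q = 0.126 and 0.561 by the authors' deposited table).

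Col11a1, a chain of type XI collagen, rose in HDAC2 knockdown, at 8.62 FPKM in HDAC2 knockdown, 2.97 in Sp3 knockdown and 3.27 in control (centred 1.08 ± 0.24, q = 1e-07 per the authors' deposited table). Col11a2, another chain of type XI collagen, had 4.33 FPKM in HDAC2 knockdown, 4.02 in Sp3 knockdown and 6.12 in control. Col11a2 fell in Sp3 knockdown (-0.47 ± 0.13, q = 2.39e-05), and in HDAC2 knockdown it was lower after centring (-0.81 ± 0.28, adjusted p = 0.0225) but not called by the authors' deposited table (q = 0.156). Col27a1 fell in Sp3 knockdown, with 1.37 FPKM in HDAC2 knockdown, 0.832 in Sp3 knockdown and 1.33 in control (centred -0.54 ± 0.22, q = 0.00942 per the authors' deposited table).

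The basement membrane collagens include gene pairs that lie head to head, and no test compared the pairs. Col4a1 (mm9 chromosome 8, 11198422 to 11312826) measured 32.4 FPKM in HDAC2 knockdown, 14 in Sp3 knockdown and 22.2 in control. Col4a2 (mm9 chromosome 8, 11312828 to 11449287) measured 32.1 FPKM in HDAC2 knockdown, 13.6 in Sp3 knockdown and 20.1 in control. Their levels were close to each other in every group and lowest in Sp3 knockdown. Both fell there (-0.54 ± 0.11, q = 9.28e-08 for Col4a1, and -0.43 ± 0.11, q = 5.36e-06 for Col4a2), and neither passed the threshold in HDAC2 knockdown (q = 0.226 and 0.115 by the authors' deposited table).

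Col4a5 and Col4a6 form another head-to-head pair, on the X chromosome, with 1342 bases between their loci in mm9. Col4a5 measured 10.4 FPKM in HDAC2 knockdown, 3.25 in Sp3 knockdown and 3.02 in control, and Col4a6 measured 1.54 FPKM in HDAC2 knockdown, 0.410 in Sp3 knockdown and 0.204 in control. Both rose in HDAC2 knockdown (1.46 ± 0.24, q = 1.33e-11 for Col4a5, and 2.60 ± 0.44, q = 1.01e-09 per the authors' deposited table for Col4a6). In Sp3 knockdown Col4a5 did not pass the threshold (0.24 ± 0.14, q = 0.573 per the authors' deposited table) and Col4a6 was not tested. Col18a1, which yields the fragment endostatin, had 6.06 FPKM in HDAC2 knockdown, 3.51 in Sp3 knockdown and 3.34 in control, and Col15a1, a related chain, had 1.73 FPKM in HDAC2 knockdown, 1.38 in Sp3 knockdown and 0.938 in control. Both were called higher in HDAC2 knockdown by the authors' deposited table (q = 0.00342 and 0.044), and neither call held after centring (adjusted p = 0.124 and 0.31). Col15a1 was higher in Sp3 knockdown after centring (0.69 ± 0.25, adjusted p = 0.0167) but not by the authors' deposited table (q = 0.0687).

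Of type VI collagen, whose chains assemble into beaded microfibrils, Col6a1 was the most abundant chain at 19.5 FPKM in HDAC2 knockdown, 7.11 in Sp3 knockdown and 8.31 in control. Col6a2 had 1.74 FPKM in HDAC2 knockdown, 1.01 in Sp3 knockdown and 0.625 in control. Col6a1 (0.91 ± 0.28, adjusted p = 0.0109, q = 0.000145) and Col6a2 (1.16 ± 0.41, adjusted p = 0.0275, q = 0.0017 per the authors' deposited table) rose in HDAC2 knockdown. Col6a3 fell in Sp3 knockdown (-0.61 ± 0.21, q = 0.00269 per the authors' deposited table), at 1.64 FPKM in HDAC2 knockdown, 0.690 in Sp3 knockdown and 1.15 in control. Type IX collagen, which decorates the surface of fibrils, was highest in HDAC2 knockdown for each of its 3 chains. Col9a1 had 3.41 FPKM in HDAC2 knockdown, 0.714 in Sp3 knockdown and 0.457 in control and rose in HDAC2 knockdown (2.59 ± 0.41, q = 6.16e-11 per the authors' deposited table). Col9a2, not tested, had 1.15 FPKM in HDAC2 knockdown, 0.290 in Sp3 knockdown and 0.225 in control.

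Among collagens tested in both comparisons Col9a3 had the largest centred log2 difference between the knockdowns, at 11.9 FPKM in HDAC2 knockdown, 1.71 in Sp3 knockdown and 5.41 in control. It rose in HDAC2 knockdown (0.82 ± 0.25, q = 4.97e-05) and fell in Sp3 knockdown (-1.53 ± 0.23, q = 5.87e-12 per the authors' deposited table). Its locus in the table overlaps that of Tcfl5, at 3.48 FPKM in HDAC2 knockdown, 0.738 in Sp3 knockdown and 1.75 in control, and without a stated strand setting reads of overlapping genes cannot be told apart. Col16a1, at 10.2 FPKM in HDAC2 knockdown, 3.23 in Sp3 knockdown and 5.19 in control, fell in Sp3 knockdown (-0.55 ± 0.14, q = 2.2e-05 per the authors' deposited table). In HDAC2 knockdown it was called higher by the authors' deposited table (q = 0.00122), but not after centring (0.67 ± 0.26, adjusted p = 0.0587).

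Col12a1, Col19a1 and Col22a1, chains of collagens associated with fibrils, rose in HDAC2 knockdown. Col12a1 had 2.53 FPKM in HDAC2 knockdown, 0.833 in Sp3 knockdown and 0.617 in control (centred 1.72 ± 0.28, q = 1.16e-11 per the authors' deposited table in HDAC2 knockdown). Col22a1 had 4.53 FPKM in HDAC2 knockdown, 3.50 in Sp3 knockdown and 2.01 in control, and it was higher in both knockdowns (0.86 ± 0.25, q = 4.44e-05 in HDAC2, and 0.93 ± 0.16, q = 3.97e-06 per the authors' deposited table in Sp3 knockdown). Col19a1 had 3.06 FPKM in HDAC2 knockdown, 1.86 in Sp3 knockdown and 1.53 in control. It rose in HDAC2 knockdown (0.68 ± 0.26, adjusted p = 0.0439, q = 0.000678 per the authors' deposited table). In Sp3 knockdown it was higher after centring (0.41 ± 0.15, adjusted p = 0.0208) but not by the authors' deposited table (q = 0.149). The membrane-spanning collagens Col23a1 and Col25a1 passed the threshold in neither comparison. Col23a1 had 5.89 FPKM in HDAC2 knockdown, 5.05 in Sp3 knockdown and 6.04 in control. Col25a1, a neuronal collagen, had 13.6 FPKM in HDAC2 knockdown, 11.4 in Sp3 knockdown and 12.7 in control.

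Col6a5, Col7a1 and Col20a1 were lower in both knockdowns, against the shared control. Col7a1, which anchors epithelial basement membranes, had 0.735 FPKM in HDAC2 knockdown, 0.563 in Sp3 knockdown and 2.06 in control. Its centred log2 fold change was -1.80 ± 0.31 in HDAC2 and -1.74 ± 0.21 in Sp3 knockdown (q = 2.56e-05 in HDAC2 knockdown and q listed as 0 per the authors' deposited table in Sp3 knockdown). Col20a1 had 2.04 FPKM in HDAC2 knockdown, 1.52 in Sp3 knockdown and 3.72 in control. Its centred change was -1.18 ± 0.31 in HDAC2 and -1.16 ± 0.19 in Sp3 knockdown (q = 0.021 and q = 7.46e-10 per the authors' deposited table). Col6a5 was low throughout, at 0.323 FPKM in HDAC2 knockdown, 0.188 in Sp3 knockdown and 0.925 in control, with -1.83 ± 0.39 in HDAC2 and -2.17 ± 0.36 in Sp3 knockdown (q = 0.000698 and q = 4.38e-09 per the authors' deposited table). In all 3 genes the control value exceeded both knockdown values.

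Laminin chains changed unevenly in HDAC2 knockdown. Of the 8 tested, the authors' deposited table called 5 higher and 1 lower in HDAC2 knockdown, and 0 higher and 3 lower in Sp3 knockdown. Over all genes 24.6% were called higher in HDAC2 knockdown and 26.1% lower in Sp3 knockdown. After centring 4 laminins were higher and 1 lower in HDAC2 knockdown, and 0 higher and 2 lower in Sp3 knockdown, where 10.2% of all genes were higher in HDAC2 and 17.6% lower in Sp3 knockdown. Lamb2, a beta chain known from the neuromuscular synapse, had 21.5 FPKM in HDAC2 knockdown, 5.86 in Sp3 knockdown and 5.81 in control, while the other common beta chain, Lamb1, had 11 FPKM in HDAC2 knockdown, 10.5 in Sp3 knockdown and 12.8 in control. Lamb2 thus stood above Lamb1 in HDAC2 knockdown and below it in Sp3 knockdown and in control. Lamb2 rose in HDAC2 knockdown (1.57 ± 0.26, q = 7.98e-12 per the authors' deposited table). Lamb1 was not called there (-0.54 ± 0.24, q = 0.489), and in Sp3 knockdown it was called lower by the authors' deposited table (q = 0.0181) but not after centring (adjusted p = 0.217).

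The alpha chains Lama2, Lama4 and Lama5 each rose in HDAC2 knockdown. Lama4, a chain of vascular laminins, had 4.46 FPKM in HDAC2 knockdown, 1.08 in Sp3 knockdown and 1.27 in control (1.50 ± 0.27, q = 1.11e-09 per the authors' deposited table). Lama2 had 3.27 FPKM in HDAC2 knockdown, 1.46 in Sp3 knockdown and 1.24 in control (1.09 ± 0.26, q = 1.38e-06 per the authors' deposited table). Lama5 had 6.03 FPKM in HDAC2 knockdown, 1.31 in Sp3 knockdown and 2.38 in control. It rose in HDAC2 knockdown (1.03 ± 0.25, q = 1.35e-06) and fell in Sp3 knockdown (-0.73 ± 0.14, q = 5.63e-08 per the authors' deposited table). Lama1, an embryonic alpha chain, had 1.66 FPKM in HDAC2 knockdown, 0.869 in Sp3 knockdown and 1.36 in control. It fell in Sp3 knockdown (-0.51 ± 0.19, q = 0.00441 per the authors' deposited table) and gave -0.02 ± 0.27 in HDAC2 knockdown.

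Lamc1, the gamma chain of most laminins, had 28.2 FPKM in HDAC2 knockdown, 12.4 in Sp3 knockdown and 13.9 in control, was called higher in HDAC2 knockdown by the authors' deposited table (q = 0.00369) and missed the threshold after centring (0.71 ± 0.30, adjusted p = 0.0864). Nid1, which links laminin to type IV collagen, had 2.83 FPKM in HDAC2 knockdown, 0.603 in Sp3 knockdown and 0.504 in control, and it rose in HDAC2 knockdown (2.17 ± 0.31, q = 9.22e-14 per the authors' deposited table). Nid2 was not tested, at 0.538 FPKM in HDAC2 knockdown, 0.421 in Sp3 knockdown and 0.194 in control. The locus of Nid2 overlaps that of 2700060E02Rik, at 26.2 FPKM in HDAC2 knockdown, 27.2 in Sp3 knockdown and 30.2 in control.

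The thrombospondins moved in different directions. Thbs1 had 8.03 FPKM in HDAC2 knockdown, 14.2 in Sp3 knockdown and 13.5 in control. It fell in HDAC2 knockdown (-1.06 ± 0.22, adjusted p = 2.9e-05, q = 0.00391 per the authors' deposited table). Thbs2 had 3.68 FPKM in HDAC2 knockdown, 0.323 in Sp3 knockdown and 0.143 in control, the largest rise among the tested members in HDAC2 knockdown (4.37 ± 0.52, q listed as 0 per the authors' deposited table). Its control value was the lowest of the 59. Thbs3 had 7.60 FPKM in HDAC2 knockdown, 7.32 in Sp3 knockdown and 4.95 in control. It was higher in Sp3 knockdown (0.70 ± 0.15, q = 0.000976) and was not called in HDAC2 knockdown (q = 0.0629 by the authors' deposited table).

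Among fibulins and fibrillins, which build elastic fibres, Fbln2 changed the most in FPKM, at 12.7 FPKM in HDAC2 knockdown, 4.26 in Sp3 knockdown and 2.46 in control. It was higher in both knockdowns (2.05 ± 0.25, q listed as 0 in HDAC2, and 0.93 ± 0.17, q = 2.42e-05 per the authors' deposited table in Sp3 knockdown). Fbln5 rose in HDAC2 knockdown, where alone it was tested, at 3.40 FPKM in HDAC2 knockdown, 0.631 in Sp3 knockdown and 0.577 in control (2.24 ± 0.33, q = 2.62e-13 per the authors' deposited table). Fbln1 had 3.70 FPKM in HDAC2 knockdown, 3.07 in Sp3 knockdown and 2.02 in control, and it was called higher in both knockdowns by the authors' deposited table. After centring that call held in Sp3 knockdown (0.73 ± 0.22, q = 0.0206) and not in HDAC2 knockdown (adjusted p = 0.211, q = 0.0156 per the authors' deposited table). Fbn1 and Fbn2 were not called after centring in either comparison. Fbn1 had 3.74 FPKM in HDAC2 knockdown, 2.17 in Sp3 knockdown and 2.54 in control, and Fbn2 had 5.95 FPKM in HDAC2 knockdown, 3.79 in Sp3 knockdown and 4.70 in control. The authors' deposited table called Fbn2 lower in Sp3 knockdown (q = 0.0213).

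The other matrix glycoproteins all rose in HDAC2 knockdown, 5 of 5 both by the authors' deposited table and after centring. All-gene shares higher there were 24.6% by the table and 10.2% after centring. Tnc, which encodes tenascin-C of radial glia and astrocytes, had 82.1 FPKM in HDAC2 knockdown, 11.7 in Sp3 knockdown and 14.5 in control (2.18 ± 0.50, q = 7.02e-06 per the authors' deposited table in HDAC2 knockdown). It ranked 3 among the 59 genes in HDAC2 knockdown and 8 in control. Sparc, with the levels given above, rose in HDAC2 knockdown (1.34 ± 0.37, adjusted p = 0.0033, q = 8.46e-05 per the authors' deposited table) to the highest level of all 59 genes there. Fn1, which encodes fibronectin, had 25.8 FPKM in HDAC2 knockdown, 6.50 in Sp3 knockdown and 8.79 in control. It rose in HDAC2 knockdown (1.24 ± 0.33, adjusted p = 0.0022, q = 3.35e-05) and fell in Sp3 knockdown (-0.30 ± 0.11, adjusted p = 0.0179, q = 0.000515 per the authors' deposited table).

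Smoc1 and Smoc2 encode related SPARC family proteins that bind calcium, and they parted in Sp3 knockdown. Smoc1 had 32 FPKM in HDAC2 knockdown, 10.6 in Sp3 knockdown and 16 in control, and Smoc2 had 3.86 FPKM in HDAC2 knockdown, 3.05 in Sp3 knockdown and 0.856 in control. Smoc1 rose in HDAC2 knockdown (0.69 ± 0.19, q = 3.15e-06) and fell in Sp3 knockdown (-0.47 ± 0.11, q = 6.18e-07 per the authors' deposited table). Smoc2 was higher in both (1.86 ± 0.37, q = 8.05e-08 in HDAC2, and 1.97 ± 0.31, q = 4.26e-08 per the authors' deposited table in Sp3 knockdown), the largest rise of a tested member in Sp3 knockdown. Tnc was called lower in Sp3 knockdown by the authors' deposited table (q = 0.0151) but not after centring (adjusted p = 0.184), and Sparc passed in neither form (q = 0.106 by the authors' deposited table).

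Of the 3 tested inhibitors of metalloproteases the authors' deposited table called 1 higher in HDAC2 knockdown, against 24.6% of all genes. In Sp3 knockdown it called 1 higher and 1 lower, against 13.2% and 26.1% of all genes. After centring the call in HDAC2 knockdown was lost. The difference between the knockdowns passed the test for 0 of the 3. Timp3 had 16.7 FPKM in HDAC2 knockdown, 8.52 in Sp3 knockdown and 17.1 in control, and it fell in Sp3 knockdown (-0.87 ± 0.11, q listed as 0 per the authors' deposited table). Timp2 was higher in Sp3 knockdown (0.80 ± 0.19, q = 0.0023 per the authors' deposited table). In HDAC2 knockdown its FPKM as deposited was as high, but its centred change was smaller, with a wider error (0.46 ± 0.48). Timp2 was not called there (q = 0.207 by the authors' deposited table). Timp4, at 11.7 FPKM in HDAC2 knockdown, 7.97 in Sp3 knockdown and 7.41 in control, was called higher in HDAC2 knockdown by the authors' deposited table (q = 0.0459) but not after centring (adjusted p = 0.448). Timp3 and Timp4 share loci with the synapsin genes Syn3 and Syn2. Syn3 stood at 5.64 FPKM in HDAC2 knockdown, 4.65 in Sp3 knockdown and 3.54 in control, and Syn2 at 143 in HDAC2 knockdown, 142 in Sp3 knockdown and 85.7 in control, so values of Timp3 and Timp4 are uncertain without a stated strand setting.

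Setting the knockdowns against each other tests where their matrix changes differ. The difference of the centred log2 fold changes, HDAC2 minus Sp3 knockdown, was tested in 44 genes with an error that sums both comparisons' errors and so counts the shared control in each. It passed an adjusted p of 0.05 as higher in HDAC2 knockdown in 13 genes and as lower in 1, where 7.86% of all tested genes were higher and 6.87% lower. The 13 were Col11a1, Col4a5, Col6a1, Col9a3, Col16a1, Lama4, Lama5, Lamb2, Fbln2, Fn1, Smoc1, Sparc and Tnc. With p-values from the authors' statistics, the widest were Tnc (2.36 ± 0.51, adjusted p = 9.66e-05), Col9a3 (2.35 ± 0.34, adjusted p = 2.83e-10) and Lama5 (1.75 ± 0.29, adjusted p = 9.09e-08). By the authors' statistics Thbs1 was lower in HDAC2 than in Sp3 knockdown (-1.28 ± 0.24, adjusted p = 6.1e-06).

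Several genes called in 1 knockdown only, or in both, did not pass the test of the difference itself, which does not show that they responded alike. Col4a1 and Col4a2 were called lower in Sp3 knockdown alone, and their differences were 0.77 ± 0.37 and 0.79 ± 0.36 (adjusted p = 0.163 and 0.134 from the authors' statistics). For Timp3 the difference was 0.52 ± 0.27 (adjusted p = 0.22 from the authors' statistics). For Smoc2, higher in both, it was -0.11 ± 0.48, and for Col7a1, lower in both, -0.06 ± 0.38. Without centring, 23 genes in place of 13 were higher in HDAC2 than in Sp3 knockdown, and 1 was lower.

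**Figure D3:**
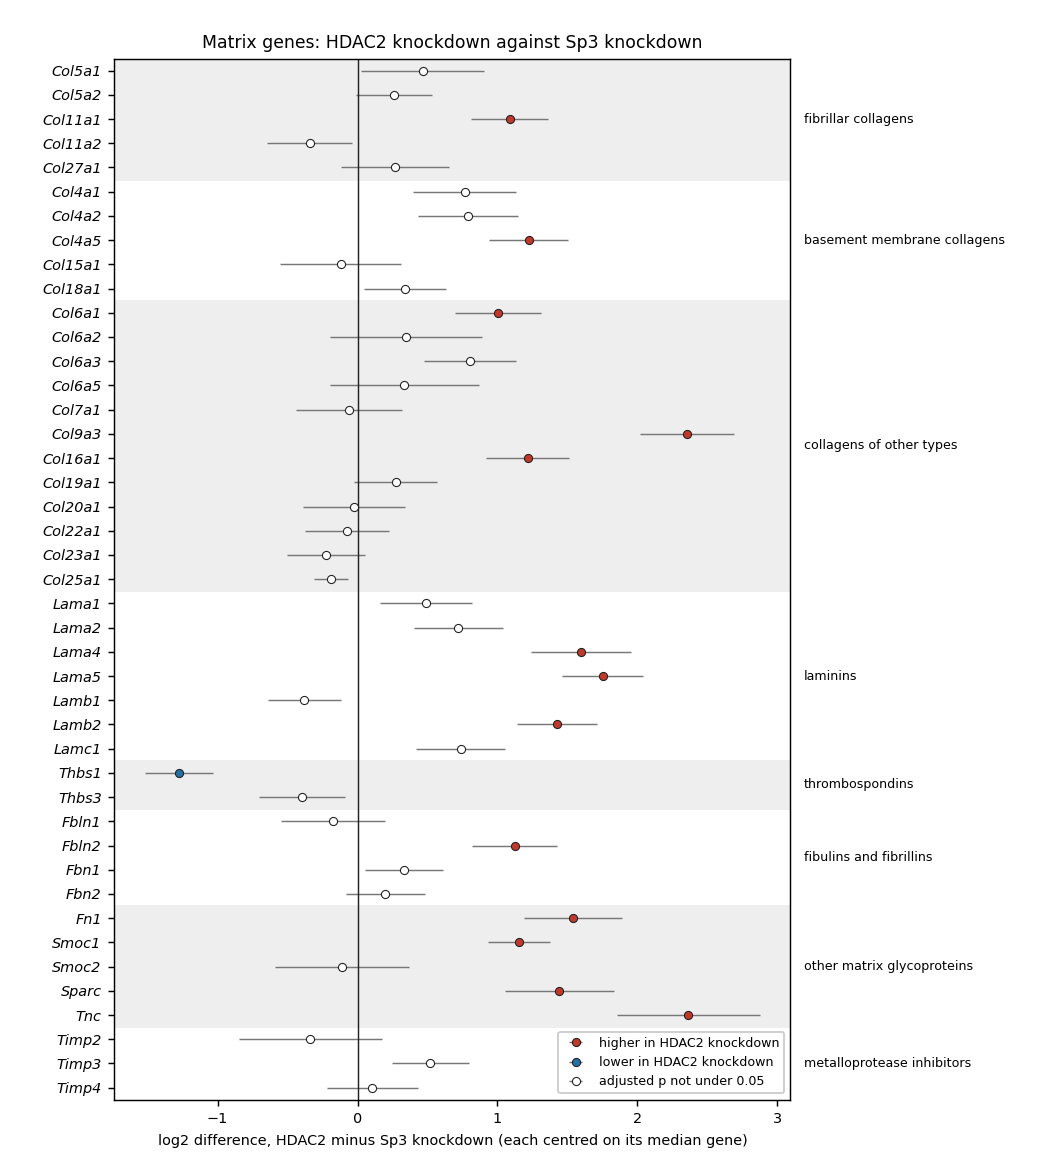
Difference of the centred log2 fold changes, HDAC2 minus Sp3 knockdown, for 43 of the 44 matrix genes tested in both comparisons, with bars for the standard error. Red points passed an adjusted p of 0.05 as higher in HDAC2 knockdown (13 genes) and the blue point as lower (Thbs1), and open points did not pass. The points range from -1.28 for Thbs1 to 2.36 for Tnc.

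Genes that process, bind or cut the matrix were read from 4 further lists, with calls of the authors' deposited table among tested members. Their counts stand beside 24.6% of all tested genes higher and 3.6% lower in HDAC2 knockdown, and 13.2% higher and 26.1% lower in Sp3 knockdown. After centring the shares of all genes were 10.2% and 7.59% in HDAC2 knockdown, and 20.2% and 17.6% in Sp3 knockdown. Of 25 collagen processing enzymes 14 were higher and 1 lower in HDAC2 knockdown, and of 23 in Sp3 knockdown 1 was higher and 12 lower. After centring the counts were 10 and 3 in HDAC2 knockdown, and 2 and 10 in Sp3 knockdown. P4ha3, a subunit of prolyl hydroxylase, measured 4.49 FPKM in HDAC2 knockdown, 0.749 in Sp3 knockdown and 0.786 in control (2.20 ± 0.26 in HDAC2 knockdown). Loxl2, which crosslinks collagen, measured 23.7 FPKM in HDAC2 knockdown, 7.99 in Sp3 knockdown and 64 in control. It fell in both knockdowns (-1.75 ± 0.31 in HDAC2, and -2.87 ± 0.20 in Sp3 knockdown). Plod2 and Lepre1, enzymes that hydroxylate lysine and proline in collagen, rose in HDAC2 knockdown (1.36 ± 0.22 and 1.01 ± 0.18), and in Sp3 knockdown Leprel2 fell (-0.86 ± 0.12) and Adamts3 rose (1.46 ± 0.11).

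Of 22 integrins and other matrix receptors tested in HDAC2 knockdown 14 were higher and 1 lower, and of 21 in Sp3 knockdown 5 were higher and 9 lower by the authors' deposited table. After centring the counts were 10 and 2 in HDAC2 knockdown, and 8 and 8 in Sp3 knockdown. Cd44, a receptor for hyaluronan, measured 46.8 FPKM in HDAC2 knockdown, 5.34 in Sp3 knockdown and 4.10 in control and rose in both knockdowns (3.20 ± 0.29 in HDAC2, and 0.51 ± 0.14 in Sp3 knockdown). Itga1, a subunit of a collagen and laminin receptor, and the syndecan Sdc1 also rose in HDAC2 knockdown (1.93 ± 0.28 and 1.72 ± 0.26). Sdc2 fell in both knockdowns (-1.09 ± 0.23 in HDAC2, and -1.44 ± 0.12 in Sp3 knockdown). In Sp3 knockdown the integrin subunit gene Itgav (-0.85 ± 0.12) and the collagen receptor gene Ddr1 (-0.33 ± 0.06) fell.

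Of 22 proteoglycan and hyaluronan genes 7 were higher and 2 lower in HDAC2 knockdown, and 5 were higher and 7 lower in Sp3 knockdown by the authors' deposited table, so the share higher in HDAC2 knockdown and the share lower in Sp3 knockdown lay near those of all genes. After centring the counts were 6 and 2 in HDAC2 knockdown, and 6 and 6 in Sp3 knockdown. The centred share higher in HDAC2 knockdown was 27.3%, against 10.2% of all genes. The centred share lower in Sp3 knockdown was 27.3%, against 17.6% of all genes. Gpc6 (1.08 ± 0.19), the hyaluronan synthase gene Has2 (2.29 ± 0.42) and the link protein gene Hapln1 (1.20 ± 0.26) rose in HDAC2 knockdown. In Sp3 knockdown Dcn rose (1.04 ± 0.09), and Gpc4 (-0.77 ± 0.11) and Cspg4 (-0.64 ± 0.12) fell. Of 19 metalloproteases 10 were higher and 0 lower in HDAC2 knockdown, and of 17 in Sp3 knockdown 7 were higher and 5 lower by the authors' deposited table. Centring gave 9 and 2 in HDAC2 knockdown, and 8 and 3 in Sp3 knockdown. Mmp14, a protease of the cell membrane, measured 51.5 FPKM in HDAC2 knockdown, 8.28 in Sp3 knockdown and 14.6 in control and it rose in HDAC2 knockdown (1.50 ± 0.26) and fell in Sp3 knockdown (-0.68 ± 0.13). Mmp24 measured 40.6 FPKM in HDAC2 knockdown, 37.3 in Sp3 knockdown and 16.5 in control and rose in both knockdowns (0.98 ± 0.29 in HDAC2, and 1.31 ± 0.10 in Sp3 knockdown), as did Adamts17 (1.37 ± 0.25 and 1.15 ± 0.13). Adamts5 rose in HDAC2 knockdown (1.53 ± 0.32), and Adamts10 fell in Sp3 knockdown (-0.71 ± 0.11).

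Markers of glial cells also differed between the groups. The 12 astrocyte markers summed to 1815 FPKM in HDAC2 knockdown, 542 in Sp3 knockdown and 633 in control. Of those tested, the authors' deposited table called 7 of 10 higher in HDAC2 knockdown and 6 of 11 lower in Sp3 knockdown, where 24.6% of all genes were higher in HDAC2 and 26.1% lower in Sp3 knockdown. After centring these were 6 of 10 higher in HDAC2 knockdown, and 3 higher and 6 lower of 11 in Sp3 knockdown. All-gene shares after centring were 10.2% higher in HDAC2 knockdown, and 20.2% higher and 17.6% lower in Sp3 knockdown. The 12 markers of the oligodendrocyte lineage summed to 445 FPKM in HDAC2 knockdown, 131 in Sp3 knockdown and 226 in control. The authors' deposited table called 9 of 12 tested higher in HDAC2 knockdown and 7 of 9 lower in Sp3 knockdown. After centring 8 of 12 were higher in HDAC2 knockdown and 7 of 9 lower in Sp3 knockdown, beside the same all-gene shares. Of the 11 neuronal markers 0 were called in HDAC2 knockdown by the authors' deposited table and 1 was lower after centring. In Sp3 knockdown 6 were higher in both forms, with 2 lower by the table and 0 lower after centring. There the table called 13.2% of all genes higher. None of the astrocyte and oligodendrocyte markers was at 0 in any group, and the part of these cells in the matrix changes was not tested.

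Markers of vessels, meninges and microglia summed to less than either glial list in every group. The 12 endothelial markers summed to 18.7 FPKM in HDAC2 knockdown, 14.7 in Sp3 knockdown and 18.4 in control, most of it from Egfl7, at 13.8 FPKM in HDAC2 knockdown, 12.1 in Sp3 knockdown and 15.5 in control. Of the 12 endothelial markers 9 were under 0.5 FPKM in HDAC2 knockdown, 9 in Sp3 knockdown and 7 in control. Of 3 tested endothelial markers the authors' deposited table called Kdr and Slco1a4 higher in HDAC2 knockdown, and after centring Kdr alone was, at 1.46 FPKM in HDAC2 knockdown, 0.913 in Sp3 knockdown and 0.551 in control. In Sp3 knockdown 0 of 2 were called by the table, and Kdr was higher after centring. The 12 mural markers summed to 44.4 FPKM in HDAC2 knockdown, 20.2 in Sp3 knockdown and 26.5 in control. Cspg4, which oligodendrocyte precursors also express, made up 21.5 FPKM in HDAC2 knockdown, 8.05 in Sp3 knockdown and 13.7 in control of those sums. Of 6 tested mural markers 3 were called higher in HDAC2 knockdown (2 after centring) and 2 lower in Sp3 knockdown in both forms. All-gene shares were 24.6% higher in HDAC2 knockdown (10.2% after centring) and 26.1% lower in Sp3 knockdown (17.6% after centring).

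The 12 fibroblast markers summed to 143 FPKM in HDAC2 knockdown, 75.4 in Sp3 knockdown and 73.6 in control, most of it from Pdgfra, also a marker of oligodendrocyte precursors, at 98.8 FPKM in HDAC2 knockdown, 20.9 in Sp3 knockdown and 43.8 in control, and from Dcn, at 38.4 FPKM in HDAC2 knockdown, 49.9 in Sp3 knockdown and 26.6 in control. Of the tested fibroblast markers 3 of 4 were called higher in HDAC2 knockdown, and 1 of 3 higher and 1 of 3 lower in Sp3 knockdown, by the authors' deposited table. After centring 2 of 4 were higher in HDAC2 knockdown, and the counts in Sp3 knockdown were the same. Of all tested genes the table called 24.6% higher in HDAC2 knockdown, and 13.2% higher and 26.1% lower in Sp3 knockdown. After centring these shares were 10.2%, 20.2% and 17.6%. Foxc1, a transcription factor gene of meningeal and vascular cells, had 2.33 FPKM in HDAC2 knockdown, 0.490 in Sp3 knockdown and 0.492 in control, and it rose in HDAC2 knockdown (1.93 ± 0.45, q = 9.4e-06 per the authors' deposited table). Of the 12 fibroblast markers 7 were under 0.5 FPKM in HDAC2 knockdown, 7 in Sp3 knockdown and 9 in control. In each group 11 of the 12 microglia markers, not the same ones, were under 0.5 FPKM, and the list summed to 2.63 FPKM in HDAC2 knockdown, 2.34 in Sp3 knockdown and 2.61 in control. The part of vascular, meningeal and microglial cells in the matrix changes was not tested.

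**Figure D4:**
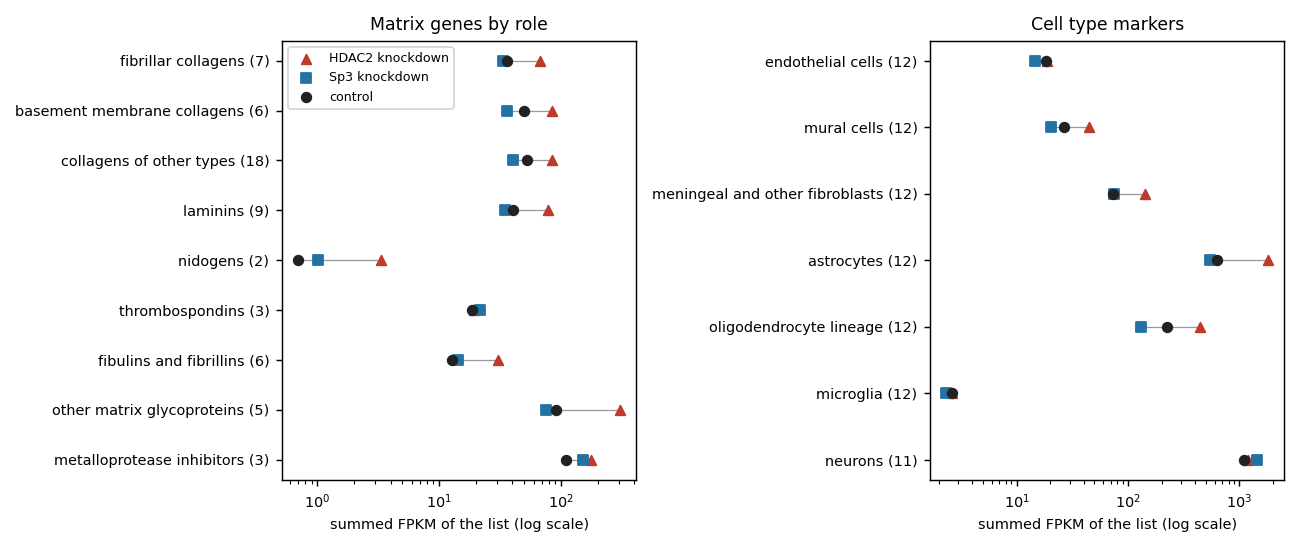
Summed FPKM on log axes of the matrix genes by role (left) and of the cell type markers (right), with the number of genes in brackets, for HDAC2 knockdown (red triangles), Sp3 knockdown (blue squares) and control (black circles). Matrix glycoproteins summed to 307 FPKM in HDAC2 knockdown, 75.6 in Sp3 knockdown and 91.9 in control. Astrocyte, oligodendrocyte, mural, endothelial and microglia markers stood in the same order of groups, and fibroblast and neuronal markers did not.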

How the data were processed

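RNA sequencing covered 6 libraries. Per the labels' protocols, libraries were made with the TruSeq kit from Illumina. Bowtie, TopHat and Cuffdiff with the mm9 build stand in the submitters' processing notes, and for their versions, the annotation and the strand setting the sources used here give nothing. The authors deposited, per the file headers, 1 FPKM per group and for each gene a p-value, a q-value, a statistic and a log2 fold change, the last 2 treated as scores because the authors wrote a fold against 0 as an extreme number. Fold and deposited statistic run in opposite directions, so the statistic was reversed. Its normal two-sided p lay within 2.79e-06 of the deposited p-value.

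A gene was called where the authors' deposited table lists it as tested (status OK) with a q below 0.05. Standard errors are the log2 fold change over the reversed statistic, and values over 5 were left out. Centred values subtract the median over tested genes of at least 1 FPKM in either group. The shifted statistic and the difference of the knockdowns were given normal p-values and Benjamini-Hochberg adjustment over all tested genes (Python 3.11.15, scipy 1.17.1), after tests on simulated data. Alternatives were upper-quartile scaling, stricter thresholds, a minimum change of 2-fold, FPKM limits and pseudocounts. Depth is unknown. Among genes under 0.3 FPKM the most common ratio to control was 1.62 in Sp3 knockdown (48 of 2567 genes) and 0.939 in HDAC2 knockdown (19 of 1817), too few to recover whole reads.

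The members and gene lists were chosen with earlier results of these data known. 1 member, kept in all counts, is not reported here by name. Every other member may be named, and of other lists the 3 genes with the smallest p per comparison. The genes that overlap a member were added after their values were seen. The listed symbols not matched were Col26a1 of the collagens, Map2 of the neuronal markers, and Colgalt1 and Colgalt2 of the processing enzymes. Pdgfra, Cspg4, Dcn and Lum stand in more than 1 list.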

Additional observations from a re-analysis of the deposited data

How the results depend on the processing

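The count of matrix genes called lower in HDAC2 knockdown was 5, and it became 3 at q under 0.01 and 2 with a minimum change of 2-fold. In Sp3 knockdown the 2-fold minimum left 1 of 7 higher and 5 of 18 lower genes. The median log2 fold change in HDAC2 knockdown, 1.00 as deposited, was 0.68 after centring and 0.68 with upper-quartile scaling. Without centring, 23 genes in place of 13 were higher in HDAC2 than in Sp3 knockdown. The other counts stayed within 1.5 times of their main value under each alternative run, and the other medians moved by less than the median standard error of the members.

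Under both scalings, 6 called genes lost their call in HDAC2 knockdown (Col15a1, Col18a1, Col16a1, Lamc1, Fbln1 and Timp4) and 3 in Sp3 knockdown (Lamb1, Fbn2 and Tnc), and 1 gene in HDAC2 and 2 in Sp3 knockdown gained a call. The sign turned, with no call in any form, for Col27a1 (-0.28 centred and -0.28 by upper quartile), Col25a1 (-0.21 and -0.21) and Lama1 (-0.024 and -0.029) in HDAC2 knockdown, and for Col5a1 in Sp3 knockdown (0.035 and 0.0056). The cause was not tested.

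No paired analysis was possible because the tables hold 1 value per group and no column per replicate, and for the same reason no replicate was left out. The 7 genes tested in HDAC2 knockdown alone had 0.143 to 0.617 FPKM in control, and the depth behind these values is unknown.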
